A study of Mus musculus with 2 samples.

Results

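Cytosolic ribosomal protein genes encode the proteins of the ribosome outside mitochondria. Members were the genes whose symbol has the form Rpl or Rps with a number and at most the ending a, x or l, or is Rplp0, Rplp1, Rplp2 or Rpsa, and which have a transcript labelled protein_coding. They numbered 80 of 55536 annotated genes. Of these, 46 belong to the large subunit, 31 to the small subunit and 3 to the stalk. A further 3 names matched, Rps4l, Rpl6l and Rpl32l, but these genes have no protein-coding transcript and were left out. Ribosomal protein genes with other names, such as Fau and Rps3a1, are described apart.

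Sequencing covered total RNA from the left cortex of male B6CASTF1/J mice, an F1 hybrid of strains B6 and Cast, at the age of 10 days. The design holds 1 group of 2 libraries, each from 300 ng of RNA with ERCC spike-ins, and has no second condition. The labels number the animals separately and give both the same donor identifier, so the spread between these samples may be technical in part. No test between groups was possible, and no p-value is given.

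The ribosome is built from ribosomal RNA and a set of proteins, each normally present once per ribosome except for the stalk proteins P1 and P2. The small subunit decodes the mRNA, and the large subunit joins amino acids and carries the stalk that recruits translation factors. Ribosomal protein mRNAs are short and abundant, many begin with a run of pyrimidines through which their translation is controlled, and their genes have left many processed pseudogenes in mammalian genomes.

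Levels were taken from 2 deposited quantifications of the same libraries. The first assigns reads from transcriptome alignments, and the second assigns them from the reads with an index. TPM is abundance per transcript length, on a scale with a fixed library total. The first quantification placed 31254528 expected counts in replicate 1 and 30218308 in replicate 2. Of 14 markers of cortical neurons, glia and vessels, 14 reached 1 TPM in each library, against 59.7% of nuclear protein-coding genes. All 4 striatal and all 5 erythroid genes examined also did, so this limit does not tell cortex from other tissue.

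Of the 80 members, 77 (96.3%) reached 1 TPM in both libraries and are called detected, against 59.7% of 21938 nuclear protein-coding genes. The same number was detected in the second quantification. The exceptions were paralogs. Rpl10l and Rpl39l had no counts in either library, and Rpl3l had 6 counts in replicate 1 and 5 in replicate 2, at 0.23 and 0.20 TPM. A count of 0 allows up to 3 counts per library by counting error, so very low expression of Rpl10l and Rpl39l cannot be told from none. Levels and ratios below are compared over the 77 members whose expected counts averaged at least 100, and other sets are named where they are used.

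Over all 80 members the median was 227 ± 7.97 TPM in the first quantification (SD, n = 2 here and throughout). The 77 counted members had a median of 233 TPM by their mean levels. The median detected protein-coding gene stood at 16.3 ± 0.46 TPM. Members held 3.99 ± 0.034% of the TPM of nuclear protein-coding genes and 0.842 ± 0.0090% of their expected counts. The gap between these shares follows from the unit, since members are short: the median length of their main transcripts was 589 bases, and the median gene length of all protein-coding genes with 100 or more counts was 2685 bases. In the second quantification the median over all 80 members was 442 ± 6.36 TPM and the share was 4.72 ± 0.026%. Of the 200 most abundant protein-coding genes, 28 were members in the first quantification and 36 in the second.

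**Figure D1:**
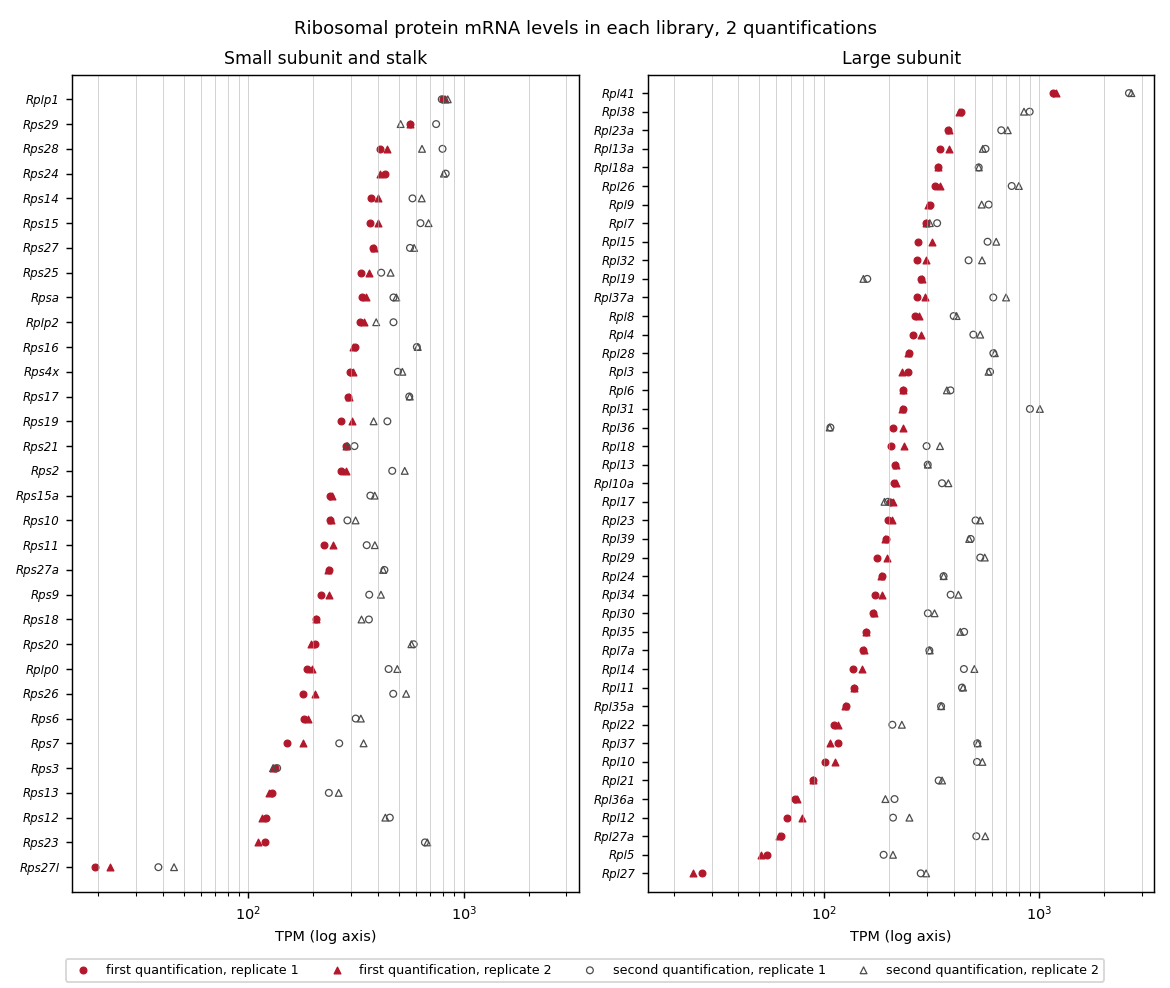
TPM of 75 of the 77 counted members in each library, on a log axis, ordered by the mean of the first quantification, with the first quantification as filled and the second as open symbols. Circles are replicate 1 and triangles replicate 2; Rpl41 is highest at 1158 and 1187 TPM in the first quantification, and Rpl27 and Rps27l are lowest.

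Small subunit proteins had a median of 247 ± 9.81 TPM in the first quantification. Rps29, a small zinc-binding protein of the 40S head, was highest with 565 TPM in replicate 1 and 564 TPM in replicate 2. Rps28 had 408 and 441 TPM, and Rps24 had 432 and 410 TPM. These last 2 overlapped between libraries, so their order is not resolved. Rpsa, also known as the laminin receptor precursor, had 339 and 352 TPM. At the low end, Rps13 had 128 and 125 TPM, Rps12 had 121 and 115 TPM, and Rps23, a protein of the decoding centre, had 119 and 111 TPM. Rps27l, a paralog of Rps27, was lowest with 19.4 and 22.8 TPM. The order differed in the second quantification. There Rps24 was highest with 825 and 809 TPM, Rps28 had 797 and 640 TPM, and Rps29 had 744 and 509 TPM. Rps23 had 660 and 677 TPM, among the highest small subunit members, Rps12 had 453 and 432 TPM, and Rps27l was again lowest with 38.2 and 45.1 TPM.

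The 46 large subunit genes apart from the stalk, which include Rpl3l, Rpl10l and Rpl39l, had a median of 204 ± 5.59 TPM in the first quantification. Rpl41 exceeded every other member, with 1158 TPM in replicate 1 and 1187 TPM in replicate 2, and ranked in place 5 of all nuclear protein-coding genes. It encodes one of the smallest known eukaryotic proteins. Its gene lies on chromosome 10 (128548114 to 128549305, minus strand, mm10), and the coding sequence of its transcript Rpl41-203 is 78 bases long, or 25 codons and a stop. The start and stop codons are in capitals.
Rpl41: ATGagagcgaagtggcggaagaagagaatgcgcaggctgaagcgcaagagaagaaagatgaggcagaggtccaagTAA
Rpl38, which is known in mice for its role in translating Hox mRNAs, came next among large subunit genes in the first quantification with 432 and 425 TPM. In the second, Rpl31 had 902 and 1004 TPM and stood above Rpl38, which had 900.1 and 847 TPM. Rpl23a had 374 and 379 TPM. The lowest counted large subunit members were Rpl27 with 27.1 and 24.6 TPM and Rpl5 with 54.1 and 50.9 TPM. Next were Rpl27a with 63.4 and 61.5 TPM and Rpl12 with 67.4 and 78.5 TPM. In the second quantification Rpl27a had 509 and 560 TPM, above the median member there, while Rpl27 had 281 and 297 TPM, Rpl12 had 209 and 249 TPM and Rpl5 had 189 and 209 TPM.

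Stalk proteins bind translational GTPases. Rplp1, which forms dimers with Rplp2, had 804 and 817 TPM, the second highest member in the first quantification, while Rplp2 had 329 and 344 TPM. Rplp0, the protein that anchors both to the ribosome, had 186 and 197 TPM. Rplp1 exceeded Rplp0 in both libraries of both quantifications, with 790 and 843 TPM for Rplp1 against 448 and 491 TPM for Rplp0 in the second. Rplp2 had 472 and 392 TPM in the second, above Rplp0 in replicate 1 and below it in replicate 2.

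Most of these proteins stand in the ribosome once each, and their mRNA levels spanned a wide range. The highest counted member, Rpl41, exceeded the lowest 55.5-fold in the first quantification and 63.3-fold in the second. In both the lowest was Rps27l, a paralog of Rps27, so these folds rest on a paralog. Next lowest was Rpl27 in the first (25.9 TPM, against 289 TPM in the second). In the second it was Rpl36 (106 TPM, against 220 TPM in the first). The SD of the log2 levels was 0.92 in the first and 0.78 in the second. The middle of the distribution was narrower, with quartiles at 166 and 297 TPM in the first quantification. Of 76 neighbouring pairs in the order of levels, 24 had libraries that did not overlap, so most neighbours cannot be ranked. Across the 77 members, Spearman's rho between the levels in both quantifications was 0.58 (a description over genes, which share libraries and reads).

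In Diamond-Blackfan anaemia, loss of 1 copy of a ribosomal protein gene impairs red cell formation in people. The mouse counterparts of 13 such genes were all detected, with a median of 282 ± 18.1 TPM in the first quantification and 490 ± 27.5 TPM in the second. Rps19, the gene most often affected, had 269 and 304 TPM. Rps26 had 178 and 204 TPM, Rpl11 had 137 TPM in each library, and Rpl5 had 54.1 and 50.9 TPM. In the second quantification Rps19 had 442 and 381 TPM and Rps26 had 470 and 540 TPM. Rpl11 had 436 and 442 TPM there, and Rpl5 had 189 and 209 TPM. Rpl5 and Rpl11 form a complex with 5S RNA that binds Mdm2.

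Of the members, 4 lie on the X chromosome, which is present once in these males. Rps4x had 297 and 307 TPM, Rpl39 had 194 and 191 TPM, Rpl10 had 100 and 113 TPM and Rpl36a had 73.1 and 75.04 TPM. Rpl39, Rpl10 and Rpl36a stood below the member median in the first quantification. Rpl10 is a late-joining 60S protein known from X-linked neurodevelopmental disease in people. In the second quantification, Rpl10 had 512 and 543 TPM and Rpl39 had 479 and 471 TPM, above the median member there. Rpl36a had 212 and 192 TPM.

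Paralogs with tissue-restricted use in other organs were low or without counts. Rpl3l, known from heart and skeletal muscle, stood far below Rpl3 (244 and 229 TPM), and its 6 and 5 counts are too few for a precise ratio. Rpl10l and Rpl39l, both known from testis, had no counts beside Rpl10 and Rpl39. Rps27 exceeded Rps27l 18.2 ± 1.99-fold in the first quantification and 13.9-fold in the second. Rps4x exceeded Rps4l 18.0 ± 1.35-fold in the first and 22.9-fold in the second, although Rps4l is annotated as a transcribed pseudogene. Rpl22 and its paralog Rpl22l1 were close, with a ratio of 0.987 ± 0.049 in the first quantification and 0.798 in the second. Rpl36a and Rpl36al changed places: the ratio was 0.748 ± 0.023 in the first quantification and 1.33 in the second.

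Ribosomal protein genes outside the naming rule lay within the range of the members. All 6 were detected, among them Fau, a fusion with Rps30, at 341 ± 12.2 TPM. Rps3a1 stood at 199.9 ± 4.91 TPM. Ribosome assembly factors, a list of 30 nucleolar and maturation genes, were all detected at a lower median of 22.4 ± 0.22 TPM. Npm1 led them with 97.4 ± 7.04 TPM.

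Many members differed between the quantifications. Levels were compared as log2 of first over second TPM with 0.1 added to each, minus the median of 11977 protein-coding genes, since that median was -0.60. The median member then stood at -0.32 ± 0.020. In both libraries, 23 of 77 members were at least 1.5-fold lower in the first quantification than in the second, against 2.91% of all genes tested, and 3 (Rpl17, Rpl19 and Rpl36) were at least 1.5-fold higher, against 1.06%. Judged from replicate 2 alone, without replicate 1, the last count was 5. Rpl27 had the largest difference, with 27.1 and 24.6 TPM in the first quantification and 281 and 297 TPM in the second.

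A TPM combines a count with an effective length, and the quantifications differed in both. The first subtracted 99 bases from each transcript's length, while the second subtracted a median of 337 bases in replicate 1 and 348 bases in replicate 2 for transcripts over 2000 bases. For short transcripts this matters more: the median effective length of the members' main transcripts was 490 bases in the first and 253 and 243 bases in the second. The length part of the ratio, after centring, had a median of -0.45 over members, and the count part had a median of 0.02. Counts alone differed in both directions. They were at least 1.5-fold lower in the first quantification for 11 members, against 0.601% of all genes, and at least 1.5-fold higher for 8 members, against 1.11%.

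The 11 members with lower counts in the first quantification were Rpl10, Rpl11, Rpl12, Rpl21, Rpl27, Rpl27a, Rpl28, Rpl31, Rpl36a, Rpl37 and Rps23. Rps23 had 1057 and 987 counts in the first and 3684 and 3487 in the second. Rpl10 had 1481 and 1579 counts in the first and 3946 and 3805 in the second. Rpl27 had 317 and 280.3 counts in the first and 1592 and 1552 in the second. For each, all values of the first quantification lay below all values of the second, which the 1.5-fold limit in both libraries largely fixed in advance.

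Counts were then summed with those of the members' copies. A copy was any other gene, away from the member's locus, whose transcripts hold at least 1 exact stretch of 100 bases of the member's coding transcripts; this definition was chosen after the data had been seen. There were 463 copies, of which 449 are annotated as pseudogenes and 13 as protein-coding. They held 59013 counts in replicate 1 and 59803 in replicate 2 in the first quantification, or 21.8 ± 0.30% of the reads on members and copies together. In the second they held 27643 and 26055 counts, or 10.8 ± 0.27%. Pseudogenes named after a member alone held 11.8 ± 0.26% of the reads on parents and pseudogenes in the first quantification and 5.03 ± 0.046% in the second.

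Rps23, Rpl10, Rpl21 and Rpl37 show how close member and copy can be. Rps23 (chromosome 13, 90922958 to 90924950) and its pseudogene Rps23-ps1 (chromosome 3, 37714740 to 37715164) were identical over 425 aligned coding bases, and Rpl10 (chromosome X, 74270812 to 74273135) and Rpl10-ps3 (chromosome 9, 50344201 to 50344968), which is annotated as protein-coding, over 645. Rpl21 (chromosome 5, 146832890 to 146837032) and BC004004 (chromosome 17, 29268788 to 29314065), a protein-coding gene whose transcript holds an Rpl21 copy, differed at 7 of 483 aligned coding bases. Rpl37 (chromosome 15, 5116645 to 5119140) and the transcribed pseudogene Rpl37rt (chromosome 5, 115102923 to 115110268) differed at 1 of 294. Positions are mm10, and the sequences are 60 coding bases each of the GENCODE M21 transcripts in the sense direction, from the start codon except for Rpl37 (coding bases 199 to 258), with bases that differ within a pair in capitals.
Rps23: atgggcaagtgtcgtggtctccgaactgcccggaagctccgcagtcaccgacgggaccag
Rps23-ps1: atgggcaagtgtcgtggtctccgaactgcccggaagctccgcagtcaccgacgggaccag
Rpl10: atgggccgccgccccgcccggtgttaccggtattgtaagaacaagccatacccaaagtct
Rpl10-ps3: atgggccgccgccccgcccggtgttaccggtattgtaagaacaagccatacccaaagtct
Rpl21: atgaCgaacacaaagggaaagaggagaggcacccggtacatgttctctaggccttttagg
BC004004: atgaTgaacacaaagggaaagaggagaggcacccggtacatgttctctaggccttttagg
Rpl37: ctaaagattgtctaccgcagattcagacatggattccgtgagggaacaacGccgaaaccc
Rpl37rt: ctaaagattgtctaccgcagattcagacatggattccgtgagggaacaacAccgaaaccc

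In 3 of these 4 pairs the copy received fewer counts in the second quantification than in the first. Rps23-ps1 received 2543 and 2462 counts in the first quantification and 0 in both libraries of the second. Rpl10-ps3 received 2394 and 2153 counts in the first and 0 in the second. Rpl37rt received 1416 and 1586 counts in the first and 526 and 536 in the second. BC004004 did not follow them, with 1114 and 1095 counts in the first and 1221 and 1302 in the second. Its pair was also divided differently, since Rpl21 had 1580 and 1498 counts in the first and 3311 and 3192 in the second. In the first quantification the counts of Rps23-ps1 exceeded those of Rps23 in both libraries, and those of Rpl10-ps3 exceeded those of Rpl10.

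For most of these genes the sum over member and copies was nearly the same in both quantifications. Rps23 with its 8 copies had 3613 and 3460 counts in the first and 3693 and 3497 in the second. Rpl10 with its 10 copies had 3895 and 3758 counts in the first and 3958 and 3819 in the second. Over the 11 members the centred log2 ratio with copies lay between 0.03 (Rpl11) and 0.27 (Rpl28). With copies added, none of the 77 members was 1.5-fold lower in the first quantification. The SD of the centred log2 count ratio fell to 0.46 with copies, against 0.75 for members alone. Which gene the reads came from was not tested.

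**Figure D2:**
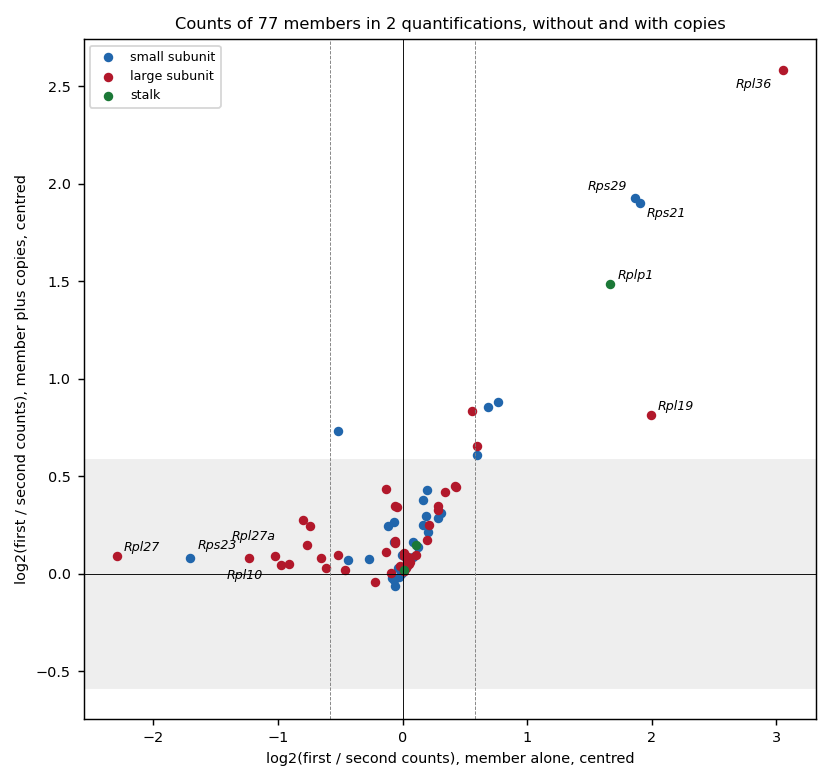
Centred log2 ratio of first over second counts for 77 members, mean of 2 libraries, with the member alone on the horizontal axis and with its copies' counts added on the vertical axis. Dashed lines and the grey band mark 1.5-fold; the 11 members left of the left dashed line lie in the band, while the 8 members higher alone, such as Rpl36 and Rps21, stay above it.

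The reverse division was seen for Rpl19, a protein at the 60S surface. It had 3756 and 3614 counts in the first quantification against 1049.6 and 946 in the second, where Rpl19-ps11 received 1314 and 1319 counts (87.8 and 103 in the first). Member and pseudogene differed at 1 of 591 aligned coding bases. With its 5 copies added, Rpl19 was still higher in the first quantification, at 0.81 on the centred log2 scale, against 1.99 alone.

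**Figure D3:**
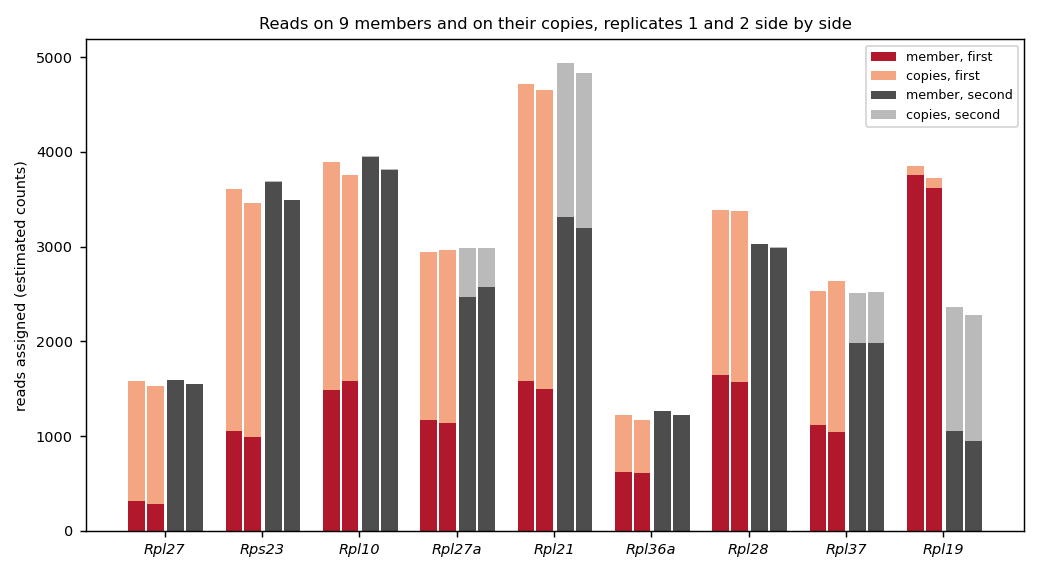
Estimated counts on 9 members (dark) and on their copies (light) in the first (red) and second (grey) quantification, with replicates 1 and 2 side by side. For Rps23 the red dark part is 1057 and 987 counts of bars that reach 3613 and 3460, while the grey bars are almost all member; for Rpl19 the grey bars hold more copy than member.

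Adding copies did not remove the higher counts: all 8 members that were higher alone were also higher with copies added. They were Rpl19, Rpl23a, Rpl36, Rplp1, Rps15, Rps21, Rps28 and Rps29, and Rpl13 and Rps12 joined them. With copies the centred log2 ratio was 0.88 for Rps28, 0.86 for Rps15 and 0.65 for Rpl23a, against 0.76, 0.68 and 0.60 alone. Rpl36 had 1218 and 1296 counts in the first and 167 and 159 in the second. Rps21 has no copy by this definition and had 1731 and 1655 counts in the first and 517 and 459 in the second. Rps29 had 3376 and 3235 counts in the first and 1207 and 790.0 in the second. Such differences are not particular to members: of 67 other protein-coding genes with a gene length under 500 bases, 55.2% had counts at least 1.5-fold higher in the first quantification by the mean of both libraries, and among the 13 members of that length 38.5% did.

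All but 6 counted members had at least 1 copy. The median counted member had 60.9% of the 100-base stretches of its main coding transcript in no other annotated gene. For 32 of 77 members under 50% of the stretches were unique, and for 11 under 20%. Rps27 had the lowest share, at 1.63%, followed by Rpl10 at 8.43% and Rps10 at 10.5%. The 6 members with no copy and 100% unique stretches included Rpl22, Rpl32, Rps21 and Rps3. Across the 77 members the share of unique stretches and the count ratio had a Spearman's rho of 0.23, so the share alone ordered the differences weakly.

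Named pseudogenes took the largest shares of parent plus pseudogene reads for Rps23 (71.0%), Rpl27 (67.8%), Rps12 (60.5%), Rpl10 (59.9%), Rps2 (55.3%) and Rpl28 (52.3%) in the first quantification. In the second the shares were 42.2% for Rps2, 11.5% for Rps12 and under 1% for the other 4. Rpl21 had the most copies, 40 genes, and Rpl7a had 37. The deposited posterior intervals, whose level no source used here states, were widest for Rps12, at 40.2% of its estimate, Rpl10 at 36.9% and Rpl27 at 35.4%. For these 3 members the intervals were wider than the gap between the libraries.

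Members also differed in which of their transcripts received the reads. Their 80 genes have 484 annotated transcripts, of which 226 are labelled protein_coding, 172 retained intron, 62 processed transcript and 24 nonsense-mediated decay. Transcripts labelled protein_coding held 82.4 ± 0.35% of the members' TPM in the first quantification and 70.3 ± 0.42% in the second. Retained-intron transcripts held 9.41 ± 0.38% in the first and 16.3 ± 0.19% in the second, and processed transcripts 4.27 ± 0.043% and 10.1 ± 0.34%.

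The most abundant transcript of a member held a median of 79.1 ± 2.88% of the gene's TPM in the first quantification. Taken from the mean TPM of both libraries, this median was 76.9% over members and 66.4% over all 11977 genes. For 15 of 77 members (19.5%) this transcript was not labelled protein_coding, against 6.54% of all 11977 genes, and in the second quantification it was not for 21 members (27.3%), against 8.37%. The typical member did not lean that way: the median share of TPM outside protein-coding transcripts was 4.70% over members and 11.01% over all genes in the first quantification, and 11.5% and 13.2% in the second. The sets shared 9 members: Rpl12, Rpl13a, Rpl23, Rpl35, Rpl37, Rps16, Rps18, Rps20 and Rps23. Rps16 had 98.0 ± 0.27% of its TPM outside protein-coding transcripts, Rpl35 96.8 ± 1.02%, Rps26 96.4 ± 0.18% and Rps20 95.1 ± 0.34%. Rpl13a, known in human cells from a complex that silences inflammatory mRNAs, had the least dominant transcript, at 21.6 ± 2.55% of its TPM over 19 annotated transcripts.

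These labels did not mean that coding sequence was missing. Of the 15 main transcripts, 14 held at least 50% of the 31-base stretches of the coding sequence of the gene's most abundant protein-coding transcript, and none held all of it. Rps26-202, labelled retained intron, is 596 bases long and held 99.4% of them, and Rpl35-203, labelled processed transcript, is 541 bases long and held 98.5%. Rps26-202 took 95.7 ± 0.23% of Rps26 TPM in the first quantification and 37.4% in the second, where the protein-coding Rps26-201 took 62.2 ± 1.33%. These shares count whole transcripts by their label and do not measure reads in introns.

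**Figure D4:**
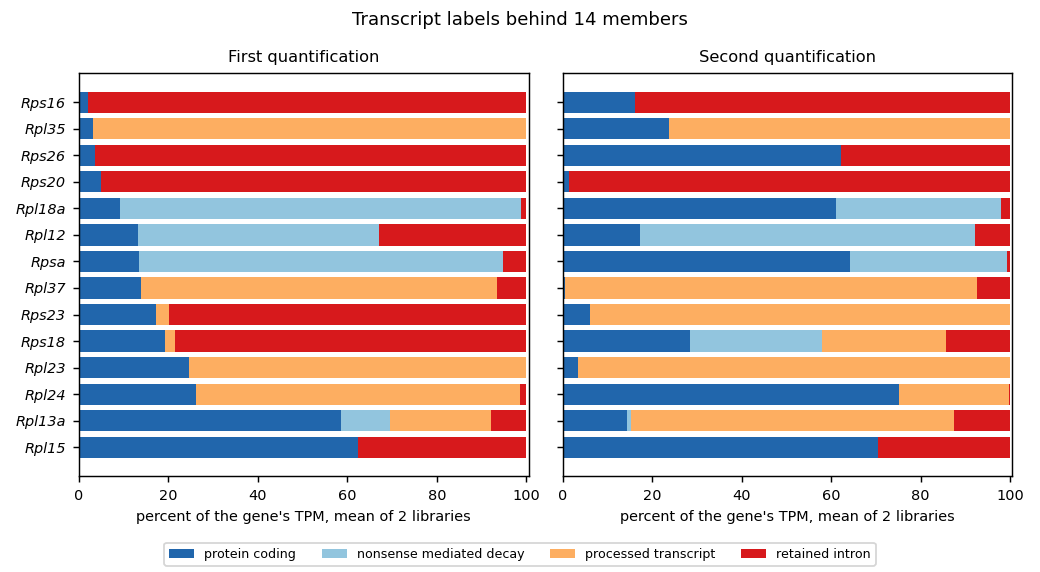
Percent of TPM by transcript label for 14 of the 15 members whose most abundant transcript in the first quantification is not labelled protein_coding, as the mean of 2 libraries, with the first quantification left and the second right. Rps16, Rpl35, Rps26 and Rps20 have under 6% in protein-coding transcripts on the left; on the right Rps26 is mostly protein-coding.

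Introns of ribosomal protein genes commonly host small nucleolar RNAs, which guide the modification of ribosomal RNA. In the annotation, 29 of 80 members (36.3%) contain a snoRNA gene on the same strand, 56 snoRNA genes in all, while 259 of 21938 protein-coding genes (1.18%) do. Rpl4 contains 5, and Rpl13a contains 4. Transcripts labelled retained intron held a median of 5.17% of TPM in the 29 host members and 1.42% in the 48 others counted, in the first quantification.

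Start sites were examined in RefSeq sequences (GRCm38.p6), which cover 60 members with 72 starts. A C at the annotated start followed by at least 4 bases that are C or T, the form of the terminal pyrimidine tract of translationally controlled mRNAs, was present at a start of 13 members (21.7%), against 448 of 16522 protein-coding genes (2.71%). A C followed by at least 5 such bases anywhere from 10 bases before to 30 bases from the start was present in 40 members (66.7%), against 30.96% of protein-coding genes. Windows of 30 bases, 10 before and 20 from the start site, are shown for 5 of those 13 members, with the tract in capitals.
Rpl38 (chr11:114668570-114668599, plus strand): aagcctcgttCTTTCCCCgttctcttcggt
Rps27 (chr3:90213629-90213658, minus strand): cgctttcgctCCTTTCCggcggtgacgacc
Rplp2 (chr7:141447641-141447670, plus strand): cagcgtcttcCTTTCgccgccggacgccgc
Rpl15 (chr14:18270967-18270996, minus strand): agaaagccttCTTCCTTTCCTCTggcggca
Rps6 (chr4:86857348-86857377, minus strand): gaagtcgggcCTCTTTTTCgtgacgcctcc
Members with a tract at a start had a median of 242 TPM in the first quantification (n = 13), and the 44 other counted members with a RefSeq start had 208 TPM. In the second quantification the medians were 432 and 456 TPM, so the order of these medians was not stable.

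Promoter windows of 250 bases before to 50 bases from the start were searched on both strands for exact motifs, and matches of different motifs may overlap. CCGGAAG, the core bound by ETS factors, was present in 25 of 60 members (41.7%), against 13.4% of protein-coding genes. AAGATGG, the core of the YY1 site, was present in 15% of members, against 7.26%. GGGCGG, bound by Sp1, was present in 60%, against 51.02%, and TATAAA in 10%, against 14.3%. A match describes letters in the window and not binding.

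Between the libraries, in the first quantification, the members were close to each other. On the log2 scale of TPM with 0.1 added, replicate 2 over replicate 1, the median member was at 0.02 and the median of all 11977 genes at 0.04. No member passed a 1.2-fold difference in either direction there, while 8.46% of all genes were higher and 2.91% lower in replicate 2. In the second quantification some members did pass that limit, in both directions. Among them, Rps29 had 744 TPM in replicate 1 and 509 TPM in replicate 2, and Rps28 had 797 and 640 TPM. Rps7 went the other way, with 264 and 343 TPM. The share of all genes past the limit was not computed for the second quantification. Members have many reads, and 74 of them reach a mean count of 1000. Among the 5538 genes with that many counts, 2.78% were higher and 0.704% lower in replicate 2, and the SD of the log2 ratio was 0.084 over the 74 members and 0.13 over the genes.

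In the first quantification Rps7 had the highest ratio, at 0.25, with 180.0 TPM in replicate 2 and 151 TPM in replicate 1. Rpl27 had the lowest, at -0.14, with 24.6 TPM in replicate 2 and 27.1 TPM in replicate 1. In CPM, counts divided by the library total with no length estimate, Rps7 differed less, with a ratio of 1.06 and a 95% Clopper-Pearson interval of 1.00 to 1.13 that covers counting error only. Such intervals lay wholly above 1 for 19 of 77 members, against 15.6% of all 11977 genes, and wholly below 1 for 3, against 8.67%. Since the reads carry no molecular identifiers and are not independent, these intervals are too narrow. The libraries did differ in other tissue content: 7 choroid plexus genes summed to 392 TPM in replicate 2 and 71.1 TPM in replicate 1, and 5 erythroid genes, all lower in replicate 2, to 836 TPM in replicate 2 and 1213 TPM in replicate 1. Ttr alone made most of the choroid plexus difference, with 304 TPM in replicate 2 and 7.35 TPM in replicate 1, and 2 of those 7 genes were detected in both libraries. Likewise, 4 striatal genes summed to 57.0 TPM in replicate 2 and 90.3 TPM in replicate 1. Their part in the small differences of the members was not tested.

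**Figure D5:**
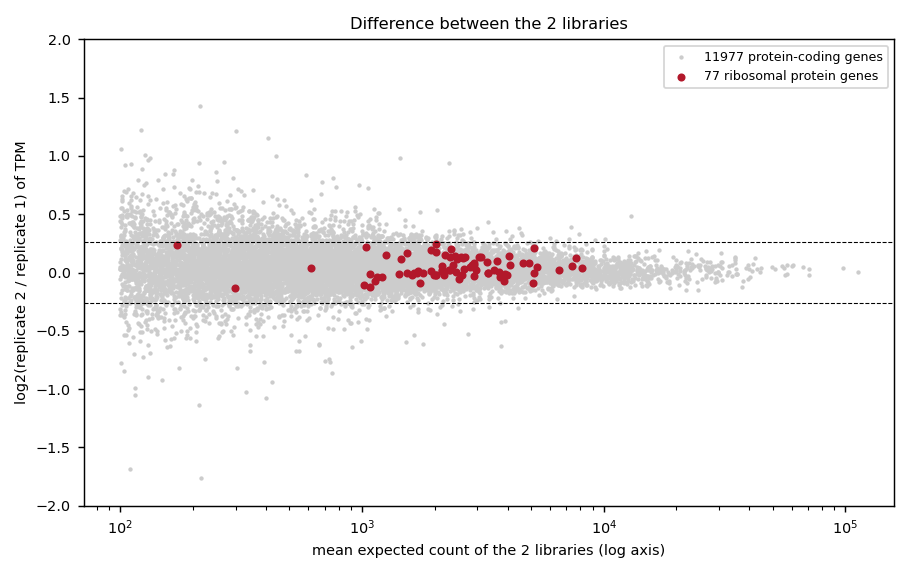
Log2 ratio of replicate 2 over replicate 1 in TPM of the first quantification, against the mean expected count (log axis). Shown are 11977 protein-coding genes (grey) and 77 members (red), with dashed lines at 1.2-fold. All red points lie between the lines, from -0.14 to 0.25, and 5 grey genes beyond 2 on the log2 scale are not drawn.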

How the data were processed

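Total RNA-seq of 2 libraries was quantified in 2 ways by the authors on mm10 with GENCODE M21, per the labels and the file headers. The first quantification holds deposited expected counts, TPM, posterior TPM with bounds and transcript percent (per the file headers); the second holds estimated counts and TPM per transcript, deposited by the authors and summed here by gene. The column layouts are those of RSEM and kallisto, but no source used here gives the programs, their versions or the strand setting. Annotated genes were matched by versioned identifier.

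Ratios used log2 of TPM plus 0.1 and genes averaging at least 100 expected counts. Library scaling was also tried with edgeR 4.0.16 (TMM) and DESeq2 1.42.0 size factors on rounded expected counts. Copies were found by exact 100-base stretches in GENCODE M21 transcripts, and coding sequences were aligned locally with Biopython 1.88. The code for the calls was run on simulated independent counts with planted changes. That simulation holds no copies, shared reads or effective lengths, so it cannot check the calls for these data.

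Named genes were the highest and lowest 6 members by TPM, the stalk and Rpsa, paralog pairs, Diamond-Blackfan and X-linked genes, members past a limit, and the extremes of pseudogene share, interval width and transcript share. Rpl19, Rpl36 and the other genes past a count limit, the snoRNA hosts and the start motifs were added after their values were seen. A few items are not reported here. The members and lists were chosen with earlier results of these data known. Total depth was 31254528 and 30218308 expected counts.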

Additional observations from a re-analysis of the deposited data

How the results depend on the processing

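No paired analysis was possible because the 2 libraries form 1 group. In the second quantification the median level over all 80 members was 442 TPM and their share of protein-coding TPM 4.72%. The share of named pseudogenes was 5.03% there, and the median share of the main transcript 67.6%. With TPM rescaled to nuclear protein-coding genes the median level was 467 TPM. The share was 0.842% in expected counts and 4.60% with named pseudogenes added. The centred ratio of quantifications was -0.92 without centring, -0.36 without the count filter and -0.35 with a pseudocount of 1. In counts it was 0.016, a changed sign, since the length part is then absent. Leaving out either library gave 221 to 232 TPM, 3.96 to 4.01% of TPM, -0.33 to -0.30, 11.7 to 12.03% on named pseudogenes, 77.1 to 81.1% for the main transcript, 77 detected, 23 to 25 members lower in the first quantification, 4 to 5 higher (3 with both libraries required) and 14 to 15 without a protein-coding main transcript. Other choices were made after seeing the data. Counting copies by shared stretches gave 21.8%. In counts, 11 members were lower and 8 higher in the first quantification, and with copies added 0 were lower and 10 higher, of which 8 were also higher alone. The median library ratio lay between -0.01 and 0.06 over scalings and settings, and TMM and DESeq2 gave a median just under 0. The counting intervals of single members had a median half-width of 0.082 in log2. That is not an interval for the median over 77 members. With 1 library no ratio exists. Depth limits what can be said of Rpl3l, Rpl10l and Rpl39l, at 0 to 6 counts.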
